A study of Mus musculus with 4 samples.

Results

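The S100 calcium-binding proteins are a family of small proteins, and the genes of 7 of them were followed here: S100a8, S100a9, S100a4, S100a6, S100a10, S100a11 and S100a1. They were chosen by name, without use of their values, and are 7 of the 16798 genes of the count table. The samples were CD45+ immune cells, CD45 being a surface marker of blood-derived and brain-resident immune cells, sorted from the cortex of mice aged 18 months. The ADAM mice were APP/PS1 Axl-/- Mertk-/-, and the AD mice were APP/PS1. Both genotypes thus carry the APP/PS1 transgenes, which make a mouse deposit amyloid in the brain, and ADAM mice have in addition lost Axl and Mertk, receptor kinases with which phagocytes take up dying cells. Each genotype had 2 libraries, ADAM 1 and ADAM 2 and AD 1 and AD 2, each from 2 pooled cortices, and no animals without the transgenes were among the samples. Transcripts were captured at their 3′ ends in droplets (10x Genomics) and counted as unique molecular identifiers (UMIs), and the authors gave each cell a class and each microglial cell a numbered state.

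An S100 protein carries a pair of calcium-binding loops of the EF-hand type, usually works as a dimer, and changes shape on binding calcium so that it can hold a partner protein. S100a8 and S100a9 form a heterodimer known as calprotectin, which fills the cytosol of neutrophils and is found in some monocytes. S100a4, S100a6, S100a10 and S100a11 bind cytoskeletal proteins and annexins in motile cells, and S100a1 is best known from heart muscle and also occurs in brain.

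ADAM 1 held 3578 cells and 23190134 UMIs, ADAM 2 4089 cells and 26212313 UMIs, AD 1 3241 cells and 14963857 UMIs, and AD 2 4543 cells and 29831947 UMIs. ADAM 2 stood apart: it had 580 neutrophils, against 11 in ADAM 1, 30 in AD 1 and 136 in AD 2, and haemoglobin and other erythroid markers summed to 4508 CPM (summed UMI counts scaled to the depth of the cell set) in its microglia, against at most 0.612 CPM in the other libraries. The folds that moved most with ADAM 2 are also given without it. Libraries shared 24 cell barcodes. Axl, whose loss the genotype predicts, was at 5.37 and 7.23 CPM in ADAM microglia, against 104 and 67.1 CPM in AD microglia. Mertk, read near its 3′ end, was at 246 and 274 CPM in ADAM microglia and at 274 and 296 CPM in AD microglia, which checks nothing where the deletion lies elsewhere in the gene. The classes held their own markers: neutrophil genes other than S100 genes (Ngp, Camp, Ltf, Retnlg, Cxcr2, Csf3r and Ly6g) summed to 10110 and 40062 CPM in ADAM neutrophils and 38443 and 20669 CPM in AD neutrophils, although Ngp, Camp, Ltf and Ly6g were at 0 among the 11 neutrophils of ADAM 1.

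All members are protein-coding genes on mouse chromosome 3 (GRCm38, GENCODE vM21). S100a1 (chr3:90511034-90514392, minus strand), S100a4 (chr3:90603771-90606045, plus strand), S100a6 (chr3:90612882-90624181, plus strand), S100a8 (chr3:90668978-90670035, plus strand) and S100a9 (chr3:90692632-90695721, minus strand) lie within 184.7 kb, with 22.6 kb between S100a8 and S100a9. S100a11 (chr3:93520488-93526287, plus strand) and S100a10 (chr3:93555080-93564643, plus strand) lie 2.82 Mb further along. Axl is on chromosome 7 and Mertk on chromosome 2. A processed pseudogene of S100a11, S100a11-ps, lies on chromosome 12 and is not a row of the count table, so reads of the gene and of its copy may have been counted together or dropped.

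The promoters of S100a8 and S100a9 are shown because their levels moved together more closely than those of any other pair of members. Each window runs from 250 bases before to 50 bases after the RefSeq start (GRCm38.p6), read along the gene's strand, at chr3:90668821-90669120 (plus strand) for S100a8 and chr3:90695672-90695971 (minus strand) for S100a9. Capitals mark matches, on either strand, to TTNCNNAA for C/EBP factors, GAGGAAG for PU.1 and TATAAA for the TATA box; no match overlaps another.
S100a8: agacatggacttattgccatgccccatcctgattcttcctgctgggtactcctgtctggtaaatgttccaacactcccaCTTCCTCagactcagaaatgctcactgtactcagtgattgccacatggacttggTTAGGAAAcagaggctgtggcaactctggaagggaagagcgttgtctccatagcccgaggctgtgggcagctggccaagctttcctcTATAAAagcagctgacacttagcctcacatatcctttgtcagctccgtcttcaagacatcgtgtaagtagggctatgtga
S100a9: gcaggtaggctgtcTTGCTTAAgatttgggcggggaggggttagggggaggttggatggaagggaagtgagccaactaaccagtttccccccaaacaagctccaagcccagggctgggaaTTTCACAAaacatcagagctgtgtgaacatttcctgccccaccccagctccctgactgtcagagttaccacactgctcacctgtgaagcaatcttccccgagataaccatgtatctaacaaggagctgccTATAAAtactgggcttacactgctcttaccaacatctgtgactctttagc

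The S100a8 window held a match to each of the 3 motifs, with first bases at -171 (PU.1), -117 (C/EBP) and -30 (TATA) relative to the start. The S100a9 window held 2 C/EBP matches, at -236 and -130, and a TATA match at position 1 of the annotated start. Among all 32851 promoters of the table, 40.7% held a C/EBP match, 13.6% a PU.1 match and 13.6% a TATA match, so each is a common run of letters. Of the 6 members with a window in the table, S100a4 also held a PU.1 and a TATA match, and S100a1, S100a6 and S100a11 held none of the 3.

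The members fell into 4 patterns across cell sets. S100a8 and S100a9 were high in neutrophils, S100a6 and S100a11 were high in neutrophils, monocytes and T and NK cells, S100a4 and S100a10 were high in monocytes and T and NK cells but low in neutrophils, and S100a1 was highest in oligodendrocytes and lowest in T and NK cells. These are descriptions, since the same counts went into the authors' classes. Over 49 sums of cells (14 sets by library), log2 CPM of S100a8 correlated with that of S100a9 at Pearson r = 0.95, S100a6 with S100a11 at 0.93 and S100a4 with S100a10 at 0.87, whereas S100a1 stayed between -0.27 and 0.09 with each of the others. The sums share libraries and, for microglia, a cell type, so no p is given. Among 8043 genes, the nearest to S100a8 after S100a9 were Lcn2 (0.88) and Retnlg (0.88), both neutrophil genes. The nearest to S100a4 after S100a10 were Tmsb10 (0.82), which binds actin monomers, and Ly6c2 (0.81), a marker of inflammatory monocytes. The nearest to S100a6 after S100a11 were Adgre5 (0.92) and Itgal (0.91), which encode leukocyte surface proteins, and Adgre5 (0.91) followed S100a6 for S100a11. For S100a10 they were Pkp3 (0.91), Tmsb10 (0.90) and Pdlim1 (0.88). S100a1 had no neighbour above 0.79, the value of Mt1, which encodes a metallothionein, and the next were Tmem106a (0.77) and Echs1 (0.75).

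**Figure D1:**
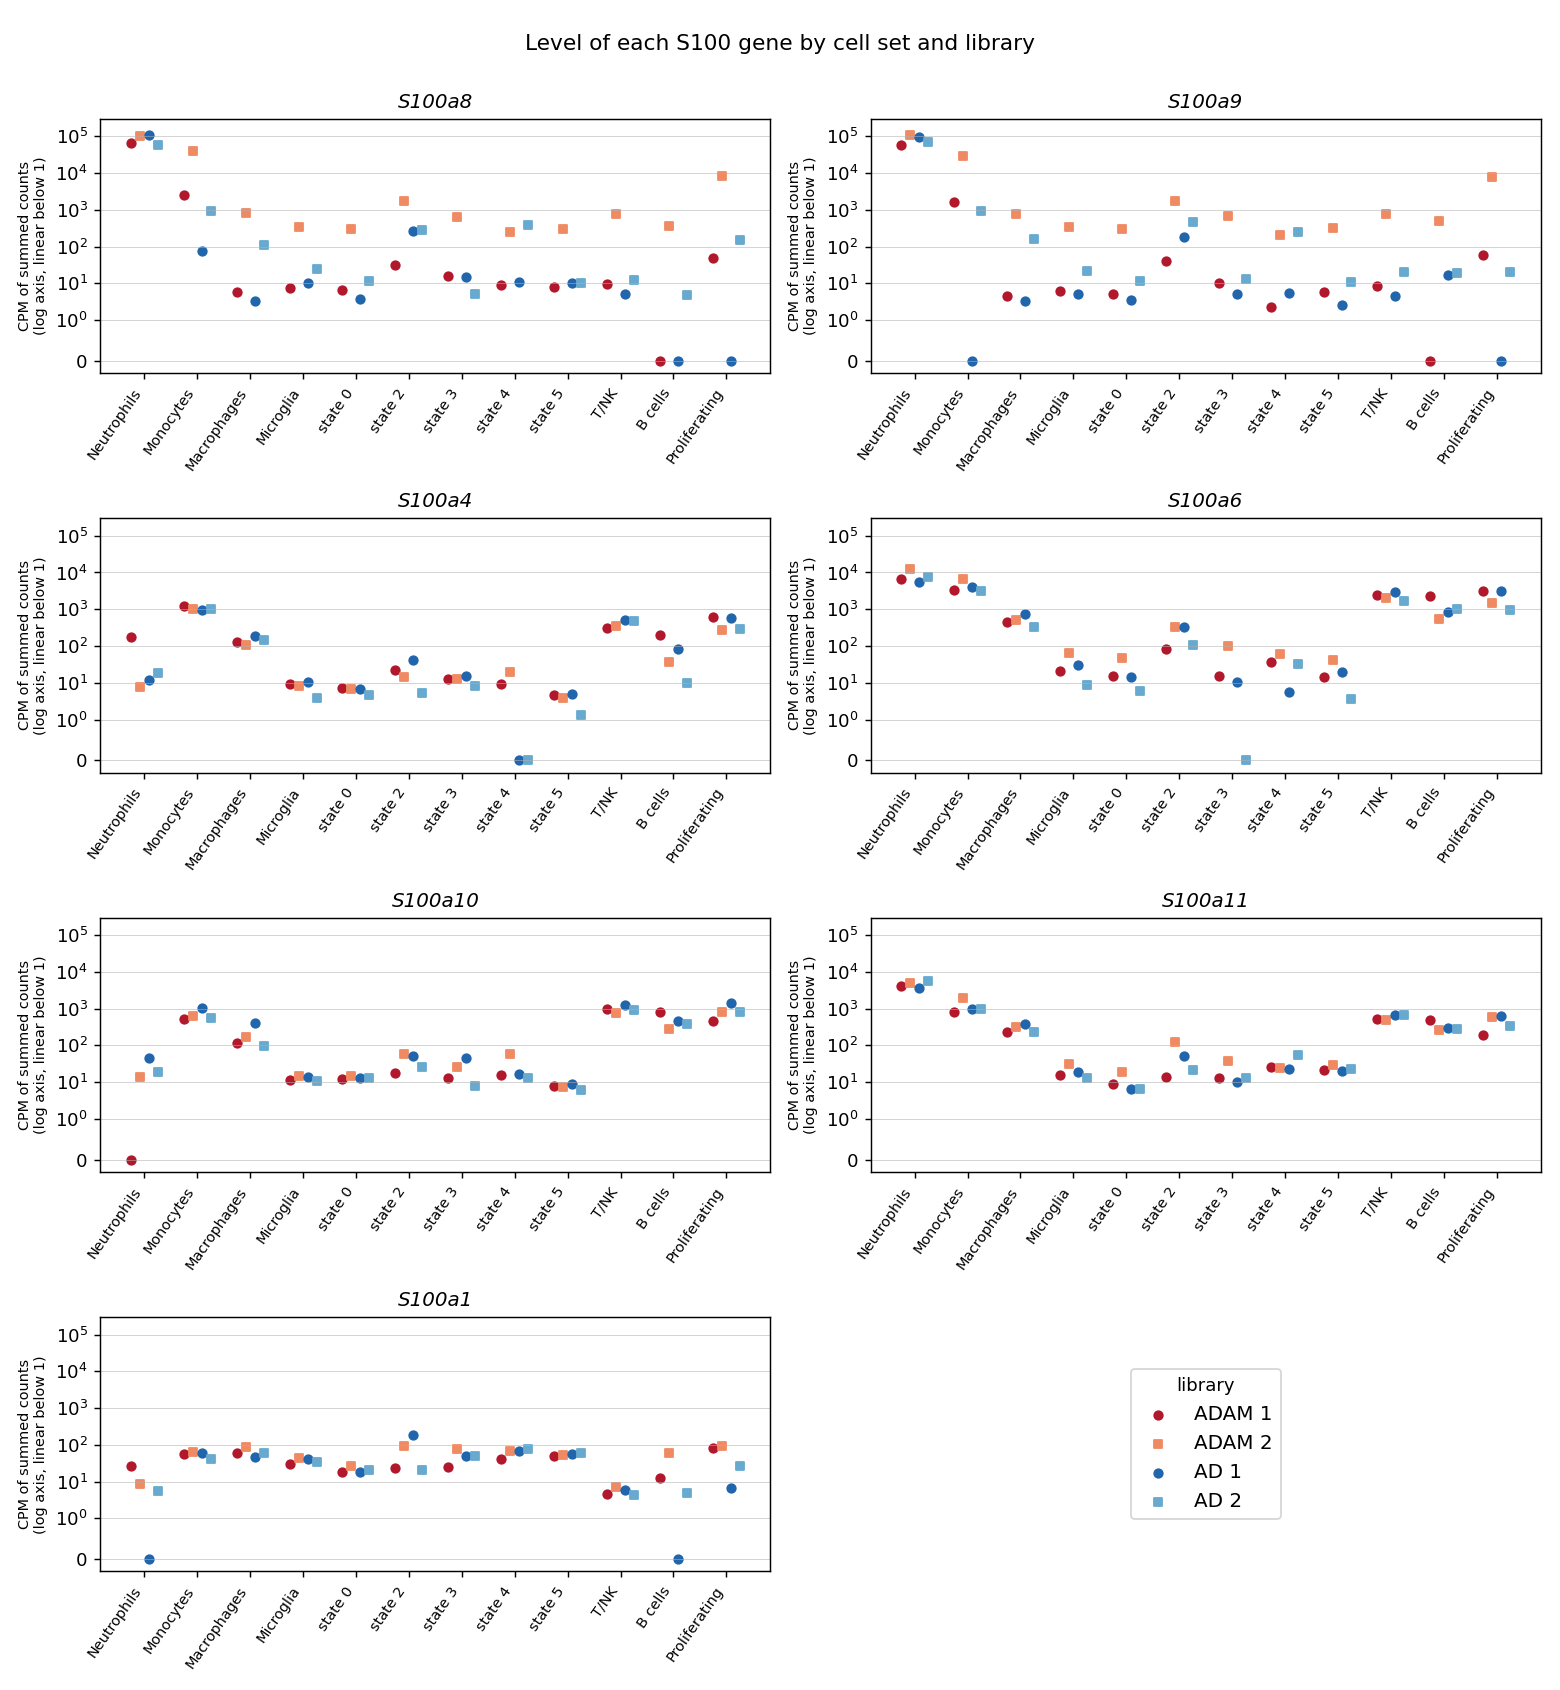
CPM of the summed counts (log axis, linear below 1) of each S100 gene in 12 cell sets, with 1 point per library (ADAM red and orange, AD blues). S100a8 and S100a9 lie at 57103 CPM or more in all neutrophil sums, and in microglia, T and NK cells and monocytes the ADAM 2 point lies above the other 3 for both genes.

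S100a8 and S100a9 encode the subunits of calprotectin. S100a8 was at 66440 and 102194 CPM in ADAM neutrophils and at 109068 and 59349 CPM in AD neutrophils, a mean of 84317 ± 25282 and 84208 ± 35157 CPM (SD, n = 2 libraries each). S100a9 was at 57103 and 111290 CPM in ADAM neutrophils and at 95272 and 70181 CPM in AD neutrophils. The genotypes overlapped for both genes, and the class was not tested because ADAM 1 held 11 neutrophils, under the minimum of 20 cells set for a library. No other set came near these levels in all 4 libraries: the sums of monocytes, the set with the next highest median, lay wholly below them. Neutrophils held 41.7% and 57.3% of the S100a8 UMIs of ADAM 1 and ADAM 2, against 97.3% and 86.5% of those of AD 1 and AD 2. Most of the remainder in ADAM 1 and ADAM 2 was in monocytes (38.7% and 24.3%) and in cells that the authors marked as doublets (16.7% and 13.6%).

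In monocytes, S100a8 was at 2549 and 39233 CPM in ADAM and at 75.3 and 947 CPM in AD. S100a9 was at 1615 and 28363 CPM in ADAM and at 0 and 950 CPM in AD. Both ADAM libraries were above both AD libraries for each gene, but ADAM 1 and ADAM 2 differed from one another more than ADAM 1 did from AD 2. The fitted log2 fold was 5.50 (SE 2.76) for S100a8 and 5.13 (SE 3.69) for S100a9, with adjusted p of 0.775 and 0.842 by edgeR's quasi-likelihood test. Without ADAM 2 the folds were 2.27 and 1.72. Over all left-out libraries they ranged from 2.27 to 8.23 for S100a8 and from 1.72 to 17.17 for S100a9, whose highest value set ADAM against AD 1 alone, at 0 UMIs, and depends on the prior count. The number of cells carrying the pair differed widely: 6 of 148 and 156 of 220 ADAM monocytes, against 0 of 91 and 5 of 104 AD monocytes, had 10 or more UMIs of both genes together. Those cells held 98.5% and 99.8% of the pair's UMIs in ADAM 1 and ADAM 2 monocytes and 94.8% in AD 2.

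ADAM 2 monocytes also carried genes of another cell type. The 7 neutrophil markers summed to 56.6 and 2829 CPM in ADAM monocytes and to 43.6 and 176 CPM in AD monocytes, and none of the 7 was at 0 in ADAM 2, whereas Ngp, Camp and Ly6g were at 0 in the other 3 libraries. Monocyte markers summed to 5900 and 11217 CPM in ADAM and 13771 and 12448 CPM in AD. The part of neutrophil RNA or of neutrophils within the class in this result was not tested. In bulk sums of this kind, more cells with a transcript and more transcript per cell cannot be told apart from the CPM alone.

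**Figure D2:**
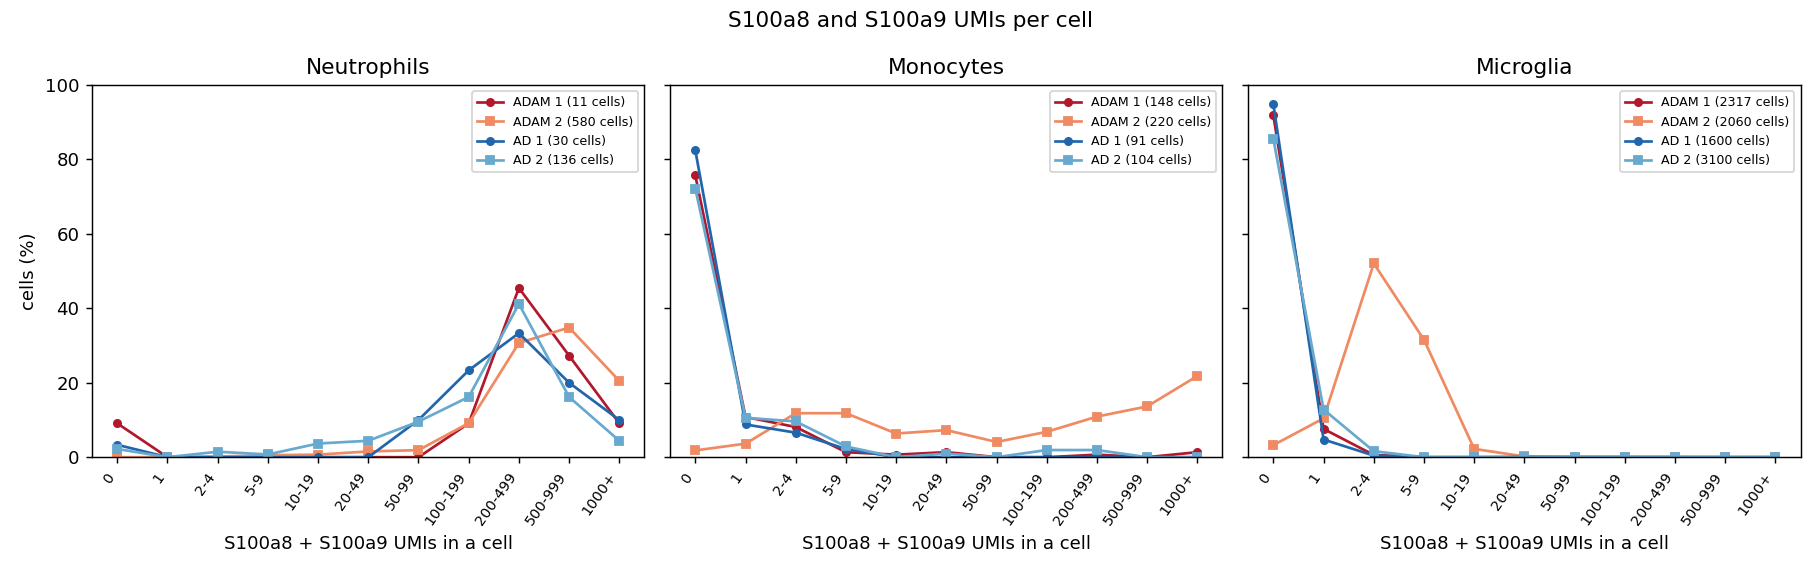
Percent of cells (vertical axis) by the number of S100a8 and S100a9 UMIs per cell (horizontal axis, unequal bins) in neutrophils, monocytes and microglia, with 1 line per library and cell numbers in the legends. Monocytes of ADAM 2 spread over all bins up to 1000 or more UMIs, while most monocytes of the other libraries had 0; most microglia of ADAM 2 had 2 to 9 UMIs.

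The pair was not always seen together in monocytes. In AD 1, 16 of 91 monocytes had an S100a8 UMI, 17.6% (exact 95% interval 10.4 to 27.0%), and 0 had an S100a9 UMI, which allows a share of such cells of up to 3.30%, a limit of 3 cells and not an end of the interval. AD 1 monocytes had 38 S100a8 UMIs and no S100a9 UMI, whereas T and NK cells of AD 1 had 17 and 15. In ADAM 1, 21 monocytes had an S100a8 UMI alone, 7 an S100a9 UMI alone and 8 had both. The share of AD 1 monocytes with an S100a8 UMI was above that of T and NK cells of the same library, at 1.66% (0.972 to 2.65%), with median depths of 5775 and 2925.5 UMIs per cell. Thinned to 2000 UMIs per cell, the shares were 11.2% and 1.06%. Intervals and limits cover counting error only.

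Microglia had little S100a8 or S100a9 outside ADAM 2. S100a8 was at 7.69 and 344 CPM in ADAM microglia and at 10.3 and 24.1 CPM in AD microglia, and S100a9 at 6.26 and 350 CPM in ADAM and at 5.24 and 22.3 CPM in AD. ADAM 1 was below both AD libraries for S100a8 and between them for S100a9, and ADAM 2 alone was high. The log2 fold was 3.39 (SE 2.45, adjusted p = 1, edgeR) for S100a8 and 3.69 (SE 2.66, adjusted p = 1) for S100a9. Without ADAM 2 the folds were -1.19 and -1.20. Single cells weighed on the AD values: 1 cell of state 4 held 385 of the 394 UMIs of the pair in that state of AD 2, and 1 cell of state 2 held 43 of 44 UMIs in AD 1.

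A UMI of S100a8 was seen in 4.75% and 83.1% of ADAM microglia and in 3.62% and 7.35% of AD microglia. T and NK cells, which are not known as a source of calprotectin, gave 3.39% and 82.2% in ADAM and 1.66% and 4.47% in AD. Thinned to 2000 UMIs per cell, the shares were 1.88% and 47.2% for ADAM and 1.46% and 2.67% for AD microglia, against 1.86% and 63.4% for ADAM and 1.06% and 2.75% for AD T and NK cells. At equal depth the microglial share in ADAM 2 was below that of T and NK cells of the same library. Thinning drops a larger part of the UMIs of a deeper cell. Median depth in ADAM 2 was 5698.5 UMIs in microglia and 3416 in T and NK cells, with a median of 4 S100a8 and S100a9 UMIs in each. The order of the thinned shares therefore cannot tell whether either class had an excess. The source of these UMIs was not tested. The thinning left out 247 and 258 ADAM and 164 and 186 AD microglia, and 71 and 79 ADAM and 161 and 70 AD T and NK cells.

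**Figure D3:**
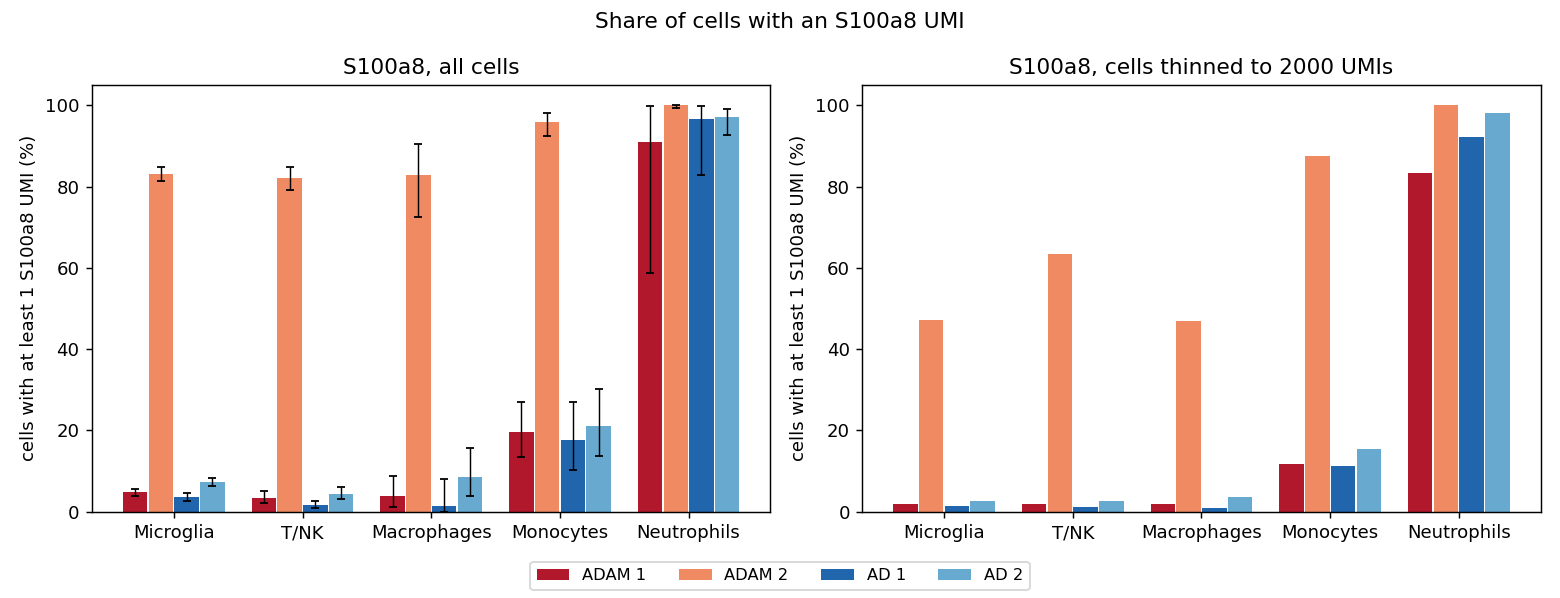
Percent of cells with at least 1 S100a8 UMI in 5 cell classes, as deposited (left, bars with exact 95% binomial intervals) and after thinning each cell to 2000 UMIs (right, no intervals), with 1 bar per library. ADAM 2 has 83.1% of microglia and 82.2% of T and NK cells with a UMI, far above the bars of the other libraries in the same classes.

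In ADAM 2, the proportion of Retnlg, a secreted neutrophil protein, to S100a8 varied between classes. Retnlg UMIs per S100a8 UMI were 0.184 in microglia, 0.189 in T and NK cells, 0.1265 in macrophages and 0.189 in cells marked as doublets, against 0.297 in neutrophils and 0.213 over all cells of the library. They were lower in monocytes, at 0.0501, and in proliferating cells, at 0.0024, and were 0.2915 in endothelial cells and 0.533 in B cells, the last from 30 S100a8 UMIs. Other neutrophil genes differed from Retnlg in this. Lcn2 UMIs per S100a8 UMI in ADAM 2 were 0.0974 in proliferating cells and 0.0644 in monocytes, against 0.0598 in neutrophils. Ngp was at 742 CPM in proliferating cells of ADAM 2 and at 5635 CPM in its neutrophils. S100a9 UMIs per S100a8 UMI were 1.02 in microglia, 0.993 in T and NK cells, 1.09 in neutrophils and 0.723 in monocytes. Retnlg was at 0.816 and 63.1 CPM in ADAM microglia and at 0.932 and 7.14 CPM in AD microglia. Csf3r, the receptor for a granulocyte growth factor, was at 169 and 140 CPM in ADAM microglia and at 166 and 150 CPM in AD microglia. A wider list of 16 neutrophil genes, Csf3r among them, summed to 173 and 281 CPM in ADAM microglia and 170 and 161 CPM in AD microglia. Csf3r was thus most of that list outside ADAM 2, and no mark of neutrophils in microglia. T and NK cells showed S100a8 at 9.46 and 774 CPM in ADAM and at 5.25 and 12.04 CPM in AD. The log2 fold was 5.51 (SE 2.99, adjusted p = 0.999, edgeR), 0.14 without ADAM 2 and 6.49 without ADAM 1. For S100a9 in T and NK cells it was 4.96 (SE 2.95, adjusted p = 0.999, edgeR), and -0.52 without ADAM 2.

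Between the genotypes, no member was called (adjusted p under 0.05 by edgeR) in any of the 10 sets that every library filled with 20 or more cells. Low counts kept some members from being tested, so 7 were tested in each set apart from state 2 (6), state 3 (1) and state 4 (4), and those left out are S100a4 in state 2, all but S100a1 in state 3, and S100a4, S100a10 and S100a11 in state 4. The share of all tested genes called was 0.0419% in microglia, 0.101% in state 0, 0.0635% in state 2, 0.313% in state 3, 0.127% in state 4 and 0.153% in state 5. It was 0.241% in T and NK cells, 0.155% in monocytes, 0.0154% in macrophages and 0.0842% in proliferating cells, so that no calls among so few members is what the background gives. An unadjusted p under 0.05 was seen for S100a11 in state 0 (4.22% of all genes), for S100a4 and S100a11 in T and NK cells (5.2%) and for S100a1 in proliferating cells (8.73%). No member had one in microglia (2.35% of all genes), state 2 (3.05%), state 3 (4.95%), state 4 (3.35%), state 5 (5.3%), monocytes (8.51%) or macrophages (2.21%). DESeq2 and limma-voom likewise called 0 members in each of the 10 sets. The libraries of the genotypes did not overlap for 0 of 7 members in microglia (28.5% of all genes), 2 of 7 in state 0 (36.6%), 0 of 6 in state 2 (27.7%), 0 of 1 in state 3 (32.6%), 1 of 4 in state 4 (30.4%) and 1 of 7 in state 5 (33.7%). They did not overlap for 2 of 7 in T and NK cells (32.9%), 3 of 7 in monocytes (35.6%), 1 of 7 in macrophages (29.3%) and 2 of 7 in proliferating cells (40.2%). With so few members, none of these counts stands out from the background. In cells marked as doublets, which were not tested, both ADAM libraries were above both AD libraries for 3 of 7 members, against 14.1% of all genes that passed the filter there. With 2 libraries a genotype, the smallest two-sided p an exact permutation test can give is 0.333.

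The sign of the folds in microglia rested on ADAM 2. With all libraries, 7 of 7 members had a positive fold in microglia (51% of all genes), with a median log2 fold of 0.62 beside 0.0035 over all genes. Without ADAM 2, 3 of 7 were positive and the median was -0.06. In state 0 (51.5% of all genes) the counts were 7 of 7 with all libraries and 3 of 7 without ADAM 2, and in state 5 (50.2%) they were 6 of 7 and 3 of 7.

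**Figure D4:**
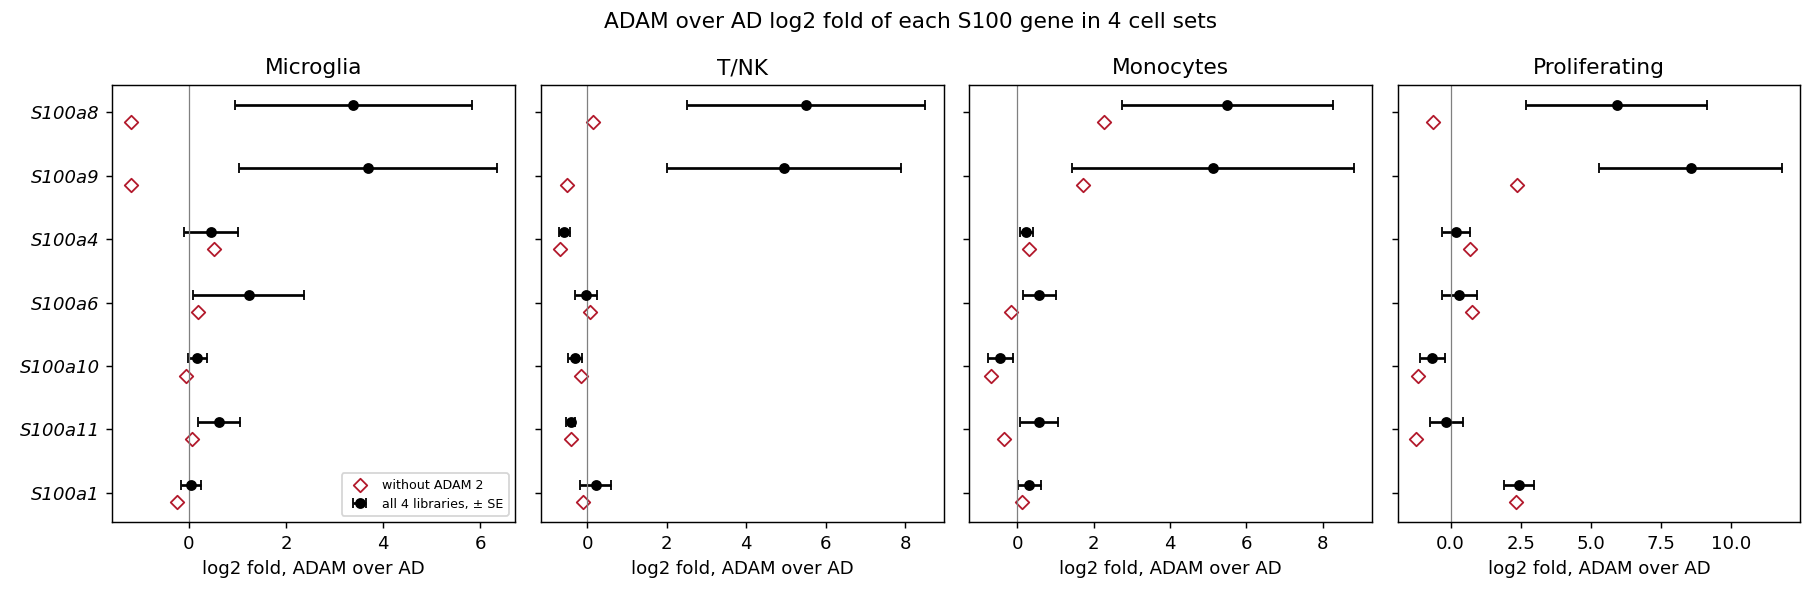
ADAM over AD log2 fold of each S100 gene in microglia, T and NK cells, monocytes and proliferating cells (black points, ± SE from edgeR over all 4 libraries) and the fold without ADAM 2 (open red diamonds). The folds of S100a8 and S100a9 in microglia are 3.39 and 3.69 with ADAM 2 and -1.19 and -1.20 without it, and those of S100a4 and S100a11 in T and NK cells differ little.

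S100a4, also called metastasin, binds non-muscle myosin and is abundant in motile leukocytes. It was highest in monocytes, at 1255 and 1000 CPM in ADAM and 971 and 989 CPM in AD, and the 4 libraries of monocytes lay above those of T and NK cells without overlap. Neutrophils had 181 and 7.44 CPM in ADAM and 11.6 and 18.9 CPM in AD, the first of these from 11 cells. Microglia had 9.32 and 8.22 CPM in ADAM and 10.6 and 3.73 CPM in AD. Among the microglial states, state 6 stood above the others in S100a4, at 140 and 73.0 CPM in ADAM and 118 and 48.1 CPM in AD, against at most 41.7 CPM in a library of another state. The AD 2 value came from 4 UMIs. State 6 was also the highest state by median in S100a6 (313 CPM), S100a11 (136 CPM) and S100a10 (51.0 CPM). For each of these genes its libraries overlapped those of state 2, the next state. State 6 was not tested, having 29 and 47 cells in ADAM and 45 and 9 in AD. Monocyte markers summed there to 310 and 491 CPM in ADAM and 815 and 601 CPM in AD, against 30.6 and 64.8 CPM in ADAM microglia and 65.1 and 22.7 CPM in AD microglia as a whole, and their part in the level was not tested.

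S100a4 was lower in both ADAM libraries of T and NK cells, at 304 and 355 CPM, than in the AD libraries, at 518 and 473 CPM. The means were 330 ± 36.5 CPM in ADAM and 496 ± 31.7 CPM in AD (SD, n = 2 libraries each), a gap wider than the spread within either genotype. The log2 fold was -0.58 (SE 0.13), and the edgeR adjusted p was 0.14, so it did not pass the threshold over 9533 genes. Without any expression filter its edgeR adjusted p was 0.00379, but that setting called 107 of 14646 genes, against 23 of 9533 in the main fit. The share of T and NK cells with a S100a4 UMI was 46.0% and 49.4% in ADAM and 47.8% and 56.5% in AD, which overlap. Cells with a Cd4 UMI and no Cd8a or Cd8b1 UMI were 4.87% and 2.17% of T and NK cells in ADAM and 12.1% and 3.14% in AD. S100a4 in those cells, 33 and 16 in ADAM and 124 and 26 in AD, was at 578 and 348 CPM in ADAM and 1447 and 844 CPM in AD. In cells with a Cd8a or Cd8b1 UMI and no Cd4 UMI, which were 70.5% and 79.0% of the class in ADAM and 61.8% and 82.1% in AD, S100a4 was at 285 and 352 CPM in ADAM and 337 and 496 CPM in AD. The genotypes did not overlap among cells with Cd4 and overlapped among cells with Cd8a or Cd8b1. This split was chosen after the values were seen, has no test, and misses cells in which the lineage gene was not captured.

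S100a10, which with annexin A2 forms a complex at the cell membrane, was highest by median in T and NK cells, at 977 and 786 CPM in ADAM and 1286 and 909 CPM in AD. Proliferating cells followed at 462 and 834 CPM in ADAM and 1424 and 828 CPM in AD, above T and NK cells in ADAM 2 and AD 1, and then monocytes at 529 and 625 CPM in ADAM and 1062 and 572 CPM in AD. The libraries of each of these sets overlapped those of the next. Neutrophils had 0 and 13.8 CPM in ADAM and 46.4 and 18.9 CPM in AD, below all 4 libraries of T and NK cells and of monocytes. Microglia had 11.5 and 14.9 CPM in ADAM and 13.8 and 11.1 CPM in AD, close together in all 4 libraries. Its folds did not pass the test in any set, and the genotypes overlapped in all 8 sets in which it was tested.

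S100a6, or calcyclin, which binds the calcyclin-binding protein and annexins, was at 6809 and 12494 CPM in ADAM and 5356 and 7319 CPM in AD neutrophils. Monocytes had 3269 and 6759 CPM in ADAM and 3925 and 3154 CPM in AD, and T and NK cells 2373 and 2044 CPM in ADAM and 2915 and 1649 CPM in AD. The genotypes overlapped in each of these sets. In monocytes ADAM 2 was the high library. The log2 fold in monocytes was 0.58 (SE 0.44, adjusted p = 0.818, edgeR), -0.17 without ADAM 2 and 1.08 without ADAM 1. Without cells holding 10 or more UMIs of S100a8 and S100a9, S100a6 in monocytes was at 3089 and 2630 CPM in ADAM and 3925 and 3014 CPM in AD, and the fold was -0.33. That cut removed 6 of 148 and 156 of 220 ADAM monocytes, against 0 of 91 and 5 of 104 in AD. Microglia had 20.8 and 62.8 CPM in ADAM and 31.0 and 8.52 CPM in AD, with ADAM 2 highest. The log2 fold there was 1.24 (SE 1.14, adjusted p = 1, edgeR), and 0.19 without ADAM 2. In ADAM 2, S100a6 UMIs per S100a8 UMI were 0.183 in microglia, 0.172 in monocytes, 0.159 in cells marked as doublets and 0.122 in neutrophils. They were 0.632 in macrophages and 2.64 in T and NK cells. In the other 3 libraries microglia had 2.71 (ADAM 1), 3.02 (AD 1) and 0.353 (AD 2), and neutrophils 0.1025, 0.0491 and 0.123. The source of the microglial S100a6 UMIs was not tested.

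S100a11, which binds annexin A1 and takes part in membrane repair, was at 4152 and 5110 CPM in ADAM and 3687 and 5543 CPM in AD neutrophils. Monocytes had 792 and 1933 CPM in ADAM and 997 and 959 CPM in AD. As with S100a6, ADAM 2 was the high library, with a log2 fold of 0.57 (SE 0.51, adjusted p = 0.859, edgeR). The fold was -0.35 without ADAM 2 and 1.13 without ADAM 1. Without the cells rich in S100a8 and S100a9 the values were 693 and 650 CPM in ADAM and 997 and 869 CPM in AD, with a fold of -0.52. Both ADAM libraries were then below both AD libraries. The cut is made on S100a8 and S100a9 themselves, and it removed 6 of 148 and 156 of 220 ADAM monocytes, against 0 of 91 and 5 of 104 in AD. How far this unequal removal moved the fold was not tested. All genes called in that setting were 135 of 5634, against 10 of 6460 in the main fit, with 0 members among them. The share of all genes without overlap was not counted there.

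In T and NK cells S100a11 was at 511 and 495 CPM in ADAM and 687 and 671 CPM in AD, a mean of 503 ± 10.96 CPM in ADAM and 679 ± 10.99 CPM in AD (SD, n = 2 each). The genotypes did not overlap, and the libraries of a genotype differed by far less than the genotypes. The log2 fold was -0.42 (SE 0.12, adjusted p = 0.444, edgeR), short of the threshold, and it lay between -0.45 and -0.40 when any one library was left out. Among cells with a Cd8a or Cd8b1 UMI and no Cd4 UMI, S100a11 was at 491 and 476 CPM in ADAM and at 485 and 683 CPM in AD, and AD 1 lay between the ADAM libraries. In cells with a Cd4 UMI and no Cd8a or Cd8b1 UMI it was at 641 and 547 CPM in ADAM and at 1486 and 681 CPM in AD, without overlap. Those values came from 72 and 33 UMIs of 33 and 16 ADAM cells, and from 572 and 67 UMIs of 124 and 26 AD cells. The split was chosen after the values were seen and has no test.

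In microglia of state 0, S100a11 was at 9.20 and 19.2 CPM in ADAM and 6.70 and 6.69 CPM in AD. Markers of homeostatic microglia summed to 8650 and 7622 CPM in ADAM and 10138 and 8948 CPM in AD in that state, and to 2622 and 2512 CPM in ADAM and 2631 and 2345 CPM in AD in state 5. Markers of disease-associated microglia summed to 357 and 406 CPM in ADAM and 416 and 307 CPM in AD in state 0, and to 12674 and 11371 CPM in ADAM and 18407 and 13189 CPM in AD in state 5. In state 5, S100a11 was at 21.0 and 28.5 CPM in ADAM and 20.7 and 22.6 CPM in AD. The genotypes did not overlap in state 0, where ADAM 2 was highest, and overlapped in state 5. The log2 fold was 1.12 (SE 0.37, adjusted p = 0.998, edgeR) in state 0 and 0.19 (SE 0.17, adjusted p = 0.994) in state 5. In state 0 it was 0.51 without ADAM 2, 1.603 without ADAM 1 and 1.11 with no expression filter. Without the filter its edgeR adjusted p in state 0 was 4.22e-04, but that setting called 94 of 15619 genes, against 11 of 10912 in the main fit. In state 5 it was -0.06 without ADAM 2. The difference between these genotype effects, tested within libraries, was -0.97 (SE 0.24, adjusted p = 0.0106, edgeR with library as a term), and S100a11 was the 1 member called of 7 tested, beside 1.02% of 11132 genes. It missed the threshold without ADAM 2 (-0.59, adjusted p = 0.62), without AD 1 (-0.98, adjusted p = 0.0726) and without AD 2 (-0.92, adjusted p = 0.393), and with limma-voom (-0.81, adjusted p = 0.672). In CPM, ADAM exceeded AD by 7.48 in state 0 and by 3.03 in state 5, and ADAM 2 exceeded the AD mean by 12.5 in state 0 and 6.78 in state 5.

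**Figure D5:**
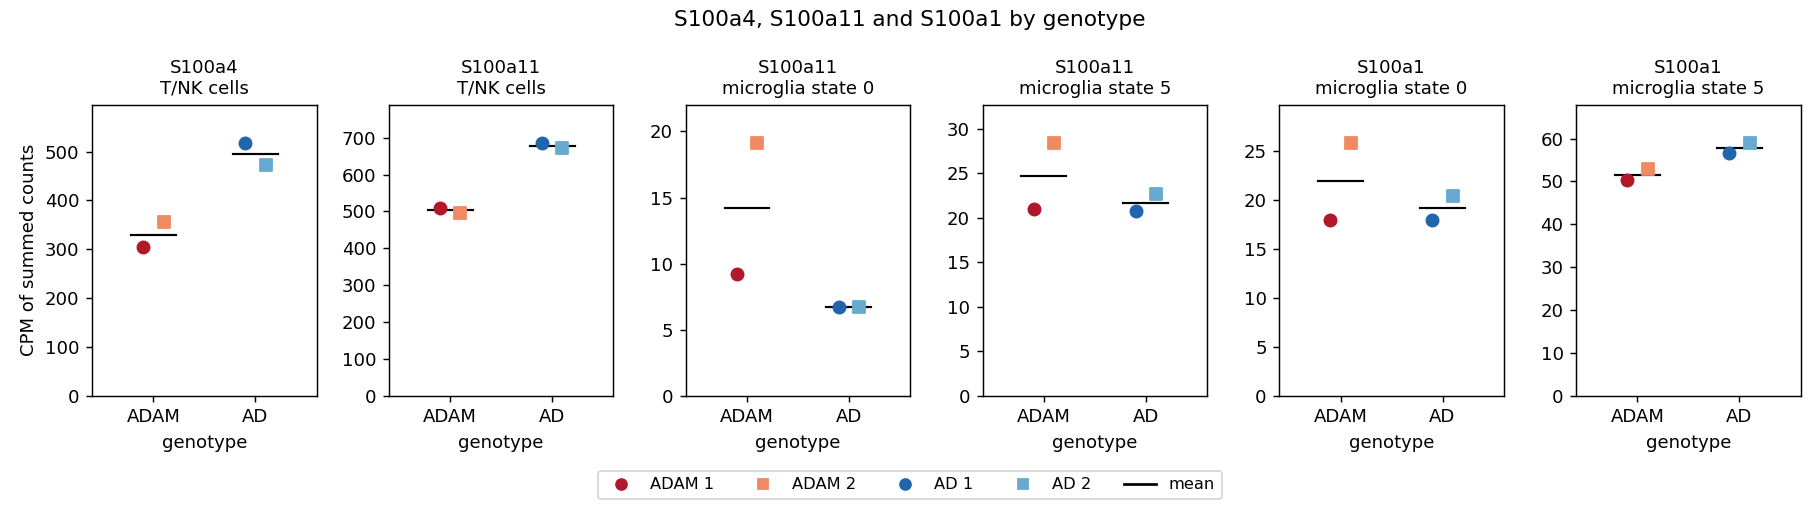
CPM of the summed counts of S100a4 and S100a11 in T and NK cells and of S100a11 and S100a1 in microglia of state 0 and state 5, with 1 point per library and a bar at the mean of each genotype; each panel has its own axis from 0. S100a4 and S100a11 in T and NK cells and S100a1 in state 5 have both ADAM points below both AD points, and S100a11 in state 0 has both above.

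S100a1 had its highest levels in oligodendrocytes, at 232 and 294 CPM in ADAM and 285 and 255 CPM in AD, although those sums held 5 and 7 ADAM and 8 and 3 AD cells. T and NK cells had 4.73 and 7.06 CPM in ADAM and 5.87 and 4.44 CPM in AD, the lowest set by median. Microglia held 57.7% and 51.4% of its UMIs in the ADAM libraries and 70.1% and 79.5% in the AD libraries. Microglia as a whole had 30.3 and 42.7 CPM in ADAM and 40.1 and 33.9 CPM in AD, which overlap.

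Within microglia, S100a1 was higher in state 5 than in state 0 in all 4 libraries. It was at 50.3 and 52.8 CPM in ADAM and 56.6 and 59.0 CPM in AD in state 5, and at 17.9 and 25.8 CPM in ADAM and 18.0 and 20.4 CPM in AD in state 0. The level in state 5 was 2.81 and 2.04 times that of state 0 in ADAM and 3.15 and 2.90 times in AD, given without a test because the states were clustered on the same cells. State 5 was not alone in this. By median, state 4 (67.7 CPM), state 6 (67.1 CPM) and state 2 (56.6 CPM) lay above state 5 (54.7 CPM), and state 3 followed (50.6 CPM). State 0 (19.2 CPM) and state 1 (17.7 CPM) were lowest. The libraries of state 5 lay within the range of each of states 2, 3, 4 and 6. States 1 and 6 had a library under 20 cells. Thinned to 2000 UMIs, 8.48% and 9.02% of ADAM and 9.77% and 10.5% of AD cells of state 5 had a UMI, against 3.45% and 4.63% of ADAM and 3.31% and 3.76% of AD cells of state 0, beside 0.796% and 1.28% of ADAM and 0.916% and 0.918% of AD T and NK cells. S100a11 was also higher in state 5 in each library, at 2.28 and 1.49 times state 0 in ADAM and 3.095 and 3.385 times in AD, whereas S100a4 was at 0.659 and 0.549 times in ADAM and 0.726 and 0.278 times in AD. S100a10 was likewise lower in state 5, at 0.641 and 0.516 times in ADAM and 0.674 and 0.475 times in AD. In state 5 both ADAM libraries had less S100a1 than both AD libraries, with means of 51.5 ± 1.80 CPM in ADAM and 57.8 ± 1.70 CPM in AD (SD, n = 2 each), but the log2 fold of -0.17 (SE 0.12, adjusted p = 0.994, edgeR) did not pass the test. The difference of its genotype effect between the states was -0.39 (SE 0.17, adjusted p = 0.373).

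In proliferating cells S100a1 was at 84.3 and 92.5 CPM in ADAM and 6.86 and 26.1 CPM in AD, a mean of 88.4 ± 5.78 CPM in ADAM and 16.5 ± 13.6 CPM in AD (SD, n = 2 each). These levels came from 66 and 87 UMIs in ADAM and only 2 and 13 UMIs in AD, so the AD side lies near the floor. The log2 fold was 2.44 (SE 0.54, adjusted p = 0.154, edgeR) and did not pass the threshold over all genes. It lay between 1.92 and 3.78 when any one library was left out. With no expression filter its edgeR adjusted p was 2.87e-04, but that setting called 340 of 13802 genes, against 6 of 7124 in the main fit. The makeup of the class differed between the genotypes: T and NK cell markers summed to 751 and 739 CPM in ADAM and 3480 and 1660 CPM in AD, markers of disease-associated microglia to 1134 and 942 CPM in ADAM and 398 and 441 CPM in AD. S100a1 itself was lowest in T and NK cells, and the part of the class makeup in the difference was not tested.

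The genes known to work with the members were measured as lists. Of 16 partner genes of S100 proteins, which include annexins, calpains, tropomyosins and Cacybp, 16 were tested in microglia, 0 were called, and their median log2 fold was 0.10 beside 0.0035 over all genes. In T and NK cells 16 were tested, 0 were called and the median was -0.05 beside -0.0056 over all genes. Anxa2, the partner of S100a10, was at 49.4 and 63.3 CPM in ADAM and 66.2 and 38.9 CPM in AD microglia. Cacybp, the partner of S100a6, was at 59.8 and 48.6 CPM in ADAM and 54.9 and 55.3 CPM in AD microglia. Of 13 genes of the receptors and signalling of S100a8 and S100a9, 12 were tested in microglia and 0 were called, with a median of 0.07. Tlr4, a receptor for calprotectin, was at 22.4 and 17.2 CPM in ADAM and 18.9 and 21.1 CPM in AD microglia. Of the 8 other S100 genes in the table, 4 were tested in microglia and 0 were called. Among them S100a13 was at 74.5 and 70.3 CPM in ADAM and 77.7 and 72.4 CPM in AD microglia, and the genotypes overlapped.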

How the data were processed

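Per the labels' protocols, CD45+ cells of 2 pooled cortices per library were sorted and made into 10x Genomics 3′ v3.1 libraries. The table deposited by the authors holds raw UMI counts with no normalization, and per the submitters' processing notes Seurat 3.2.1.9002 and Cell Ranger 3.1.0 were the tools and mm10 the build, without further detail in the sources used here. The cell table deposited by the authors also gives each cell's mitochondrial percent, which entered no test. Classes, states and doublet marks are the authors'; the 823 cells marked as doublets have no class, and 216 microglia marked as doublets with T cells have no state. UMI and gene totals of all 15451 cells equalled those the authors gave.

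Counts were summed per library and cell set, and libraries were the replicates. A set was tested where no library had under 20 cells, with edgeR 4.0.16 in R 4.3.3 (quasi-likelihood test, TMM scaling, filter at a minimum count of 10, genotype as the only term, Benjamini-Hochberg adjustment over all genes at 0.05), and state 5 against state 0 with library as a term. The scripts were tested on simulated data. CPM is without TMM. Percentages of cells were also taken after thinning to 2000 and 1000 UMIs. Likeness used log2(CPM + 1) of genes with a mean of at least 10 CPM, and the 3 nearest genes of each member were named, apart from 1 that is not reported here. Alternatives were DESeq2 1.42.0, limma 3.58.1, other scalings and filters, other cells and left-out libraries. All 7 members are named by rule; the members, lists, markers and alternatives were chosen with earlier results of these data known. Promoters are RefSeq's on GRCm38.p6.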

Additional observations from a re-analysis of the deposited data

Results flagged for a closer look

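The genotype effect on S100a11 differed between microglial states: the ADAM over AD log2 effect in state 5 minus that in state 0 was -0.97 (edgeR adjusted p = 0.0106), and the call was lost without ADAM 2, AD 1 or AD 2. Other members were flagged because both ADAM libraries were on one side of both AD libraries in one set and on the other side in another; these differences were not tested. S100a4 had a log2 fold of 0.24 in monocytes, against -0.58 in T and NK cells and -0.48 in macrophages, where it was at 128 and 104.99 CPM in ADAM and 186 and 146 CPM in AD. S100a11 had a log2 fold of 1.12 in state 0 and -0.42 in T and NK cells. S100a1 had a log2 fold of 2.44 in proliferating cells and -0.17 in state 5. None of these folds was called.

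Cells marked as doublets, which enter no comparison, had both ADAM libraries above both AD libraries for 3 of 7 members, as had 14.1% of all 10321 genes that passed the filter there; the difference was not tested. S100a4 was at 157 and 164 CPM in ADAM doublets and 115 and 74.8 CPM in AD doublets. S100a6 was at 528 and 1521 CPM in ADAM doublets and 498.8 and 326 CPM in AD doublets. S100a1 was at 39.3 and 37.3 CPM in ADAM doublets and 36.6 and 35.1 CPM in AD doublets. The makeup of the doublets by class is not known here and its part was not tested.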

How the results depend on the processing

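Of 67 fitted log2 folds (60 between genotypes and 7 between states) under 750 alternative settings in all, 656 kept their direction and side of the threshold, 22 newly passed it, 4 no longer passed it and 68 changed sign, 52 of them when a library was left out. With 0 members called in the 10 sets, the alternatives gave other counts as follows. Without an expression filter 1 member each was called in state 0, state 3, T and NK cells and proliferating cells. All genes called without the filter were 94 of 15619 in state 0 and 12 of 11416 in state 3. They were 107 of 14646 in T and NK cells and 340 of 13802 in proliferating cells, against 6 of 7124 there in the main fit. With the replicate number as a block, 1 was called in T and NK cells (S100a4, adjusted p = 0.00145), 1 in monocytes (S100a8, 0.00536) and 3 in proliferating cells (S100a8, 1.74e-04, S100a9, 8.61e-05, and S100a1, 0.047), all by edgeR; same-numbered libraries share only a number, and with 2 pairs the block is no evidence of pairing. Under the replicate block, all genes called were 90 of 9533 in T and NK cells, 3 of 6460 in monocytes and 80 of 7124 in proliferating cells. Calls with a library left out are not counted here, since such a fit leaves a genotype with a single library. The count for the state difference was 1, with 113 of 11132 genes called in all. It was 0 with limma-voom, which called 0 of 11132 genes. A crossed pairing, added after seeing the data in sets where same-numbered libraries correlated below -0.1, called 0 members in microglia, state 2 and macrophages.

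Of the folds printed in the text, those that changed sign when a library was left out ranged from -1.19 to 4.36 (S100a8, microglia), -1.20 to 5.14 (S100a9, microglia), -0.52 to 6.40 (S100a9, T and NK cells), -0.17 to 1.08 (S100a6, monocytes), -0.35 to 1.13 (S100a11, monocytes) and -0.06 to 0.38 (S100a11, state 5). Without cells with 10 or more S100a8 and S100a9 UMIs the folds in monocytes were -0.33 (S100a6) and -0.52 (S100a11). That cut left 142 and 64 ADAM and 91 and 99 AD monocytes. The cause was not tested. The design has 2 libraries per genotype, and p-values measure the spread between these pools.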
